A study of Homo sapiens with 8 samples.

Results

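The mitochondrial genome encodes a few subunits of the respiratory chain, and 6 of these mRNAs are described here: MT-CYB of complex III, MT-CO1, MT-CO2 and MT-CO3 of complex IV, and MT-ATP6 and MT-ATP8 of complex V. They were chosen by gene name, with earlier results of these data known, and they are 6 of the 58302 genes of the count table. All 6 were in the table and all 6 passed the filter on low counts. RNA sequencing was performed on the human colorectal cancer line DLD1, stably transduced with lentiviral constructs for wild-type TRMT6 and TRMT61A (OE-WT) or the empty vector (CTRL). TRMT6 and TRMT61A form the enzyme that places N1-methyladenosine (m1A) on cytosolic tRNAs. The sample labels give a single overexpression group, whereas the design text of the series lists TRMT6 and TRMT61A overexpression as separate groups. There were 2 libraries per group, each run in 2 lanes, and cells with catalytically inactive mutants were not analysed here. No age, drug or time point distinguished the groups, and every sample was washed with cycloheximide, lysed, and cleared by centrifugation before RNA extraction. The labels describe poly(A) selection and the study's methods describe removal of ribosomal RNA. The methods give 3 biological replicates, and nothing states how far apart the cultures behind the 2 libraries were kept, so the p-values measure the spread between these libraries only. Whether each stable line was a pool of cells or 1 clone is not given in the sources used here.

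Mitochondrial DNA is transcribed by POLRMT into long polycistronic RNAs. The tRNAs that lie between the coding genes are cut out by RNase P and ELAC2, which frees most of the mRNAs. Most mRNAs then receive poly(A) tails that also complete the stop codon of some of them. LRPPRC and SLIRP bind the released mRNAs and keep them stable. The proteins are hydrophobic cores of their complexes: cytochrome b (MT-CYB) passes electrons within complex III, the cytochrome c oxidase subunits (MT-CO1 to MT-CO3) form the catalytic centre of complex IV, and MT-ATP6 and MT-ATP8 belong to the membrane part of the ATP synthase, complex V. All other subunits of these complexes are made from nuclear genes and imported.

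The 6 genes lie on the plus strand of the mitochondrial chromosome of GRCh38, a circle of 16569 bases, and none has an intron. MT-CO1 (ENSG00000198804) spans chrM:5904-7445, MT-CO2 (ENSG00000198712) chrM:7586-8269, MT-ATP8 (ENSG00000228253) chrM:8366-8572, MT-ATP6 (ENSG00000198899) chrM:8527-9207, MT-CO3 (ENSG00000198938) chrM:9207-9990 and MT-CYB (ENSG00000198727) chrM:14747-15887. The last 30 annotated bases of each gene are shown because the 6 genes end in different ways, with the stop codon, or the bases left over after the last complete codon, in capitals.
MT-CYB: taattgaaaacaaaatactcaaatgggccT
MT-CO1: ttcgaagaacccgtatacataaaatctAGA
MT-CO2: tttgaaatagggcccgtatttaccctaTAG
MT-CO3: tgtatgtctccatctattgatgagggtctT
MT-ATP6: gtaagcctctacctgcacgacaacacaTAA
MT-ATP8: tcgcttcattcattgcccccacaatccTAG
MT-CYB holds 380 complete codons and MT-CO3 holds 261, and each leaves 1 base, a T, that becomes a stop codon only with the poly(A) tail. MT-CO2, MT-ATP6 and MT-ATP8 end in a complete TAG or TAA. MT-CO1 ends in AGA, which stands where a stop codon would be in the mitochondrial reading frame.

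MT-ATP8 and MT-ATP6 are carried on 1 mRNA and overlap by 46 bases at chrM:8527-8572 on the plus strand. That stretch is shown because counts of the pair could be exchanged there. The capitals mark the start codon of MT-ATP6 and the stop codon of MT-ATP8.
MT-ATP8 and MT-ATP6 overlap: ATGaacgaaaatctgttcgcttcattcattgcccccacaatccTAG
MT-ATP6 and MT-CO3 share 1 base. How the counting treated reads in shared bases is not given in the sources used here. MT-ATP8 has 161 of its 207 bases to itself, and MT-ATP6 has 634 of 681.

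The libraries held 10327498 to 12379671 counts, and 14133 genes passed the filter. Between the 2 libraries of a group, Pearson's r of log2 CPM across genes, which are not independent replicates, was 0.992 in OE-WT and 0.994 in CTRL. CPM are counts relative to library size, after scaling by the trimmed mean of M values (TMM). TRMT6 averaged 195 CPM in OE-WT and 53.9 CPM in CTRL (log2 fold change 1.86, SE 0.08), and TRMT61A averaged 134 and 57.8 CPM (log2 fold change 1.21, SE 0.07), each higher in OE-WT by edgeR's quasi-likelihood test (adjusted p = 8.5e-13 and 1.9e-10). Genes of the mitochondrial chromosome took 33.5 and 29.9% of all counts in OE-WT, against 25.1 and 27.7% in CTRL. All 10 colorectal epithelial markers passed the filter, 2 of them rising and 4 falling in OE-WT, beside 9.44 and 11.6% of all genes tested. KRT20 changed by -1.52 and CEACAM5, at only 0.69 to 2.09 CPM, by -1.33 on the log2 scale. CDH1 (-0.29) and KRT19 (-0.19) also fell, and KRT8 (0.25) and KRT18 (0.30) rose. KRT8 was between 4963 and 6097 CPM. LGALS4 was near 1 CPM. The 12 markers of fibroblasts, leukocytes and endothelium summed to 2.65 to 3.88 CPM, and 5 of them (COL1A2, COL3A1, DCN, CD3E and CDH5) had 0 counts in every library. Of the 12, 2 passed the filter and VWF fell.

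Of the 6 mRNAs, MT-CYB, MT-CO2, MT-ATP6 and MT-ATP8 rose in OE-WT, and MT-CO1 and MT-CO3 did not pass the test. The highest fold changes were those of the complex V pair, 1.39 for MT-ATP6 and 1.45 for MT-ATP8. The count of 4 of 6 higher stands beside a background of 9.44% of all genes tested (21.1% called in either direction), by an adjusted p below 0.05 (quasi-likelihood test of edgeR, Benjamini-Hochberg over the 14133 genes). The count was 2 of 6 without replicate 1 of OE-WT, 2 without replicate 1 of CTRL and 2 by DESeq2, which called MT-CO1 and MT-CO2. With the replicate number as a block it was also 2. With MT-ATP6 and MT-ATP8, which share 1 mRNA, summed as 1 entry, the count was 3 of 5. The median log2 fold change of the 6 was 0.28, and that of all genes tested was 0.01. The 6 mRNAs share the same mitochondria, libraries and precursor RNA and are not replicates of each other.

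In complex III, MT-CYB had 258052 and 218235 counts in OE-WT, against 231988 and 250735 in CTRL. On the scaled level this was 25946 and 21405.5 CPM in OE-WT and 17998 and 20314 CPM in CTRL. The groups did not overlap, although the lower OE-WT library lay close to the higher CTRL library. MT-CYB averaged 23675.5 ± 3210.3 CPM (SD, n = 2) in OE-WT and 19156 ± 1638 CPM in CTRL. Its log2 fold change was 0.31 (SE 0.10), past the threshold in edgeR's quasi-likelihood test (adjusted p = 0.0259). The call was lost without replicate 1 of OE-WT (log2 fold change 0.17, adjusted p = 0.405) and without replicate 1 of CTRL (0.22, adjusted p = 0.0932), by the same test.

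In complex IV, MT-CO1, which binds the haem groups of the oxidase, had counts of 612739 and 541669 in OE-WT and 607084 and 616700 in CTRL. Its scaled level was 61607 and 53129.5 CPM in OE-WT against 47098 and 49963 CPM in CTRL. The groups did not overlap, and the difference did not pass the threshold (57368 ± 5995 against 48530.3 ± 2026 CPM, log2 fold change 0.24, SE 0.09, edgeR adjusted p = 0.0728).

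MT-CO2, which receives electrons from cytochrome c, was at 30047 and 26283 CPM in OE-WT and at 22422 and 24733.5 CPM in CTRL. Both OE-WT libraries lay above both CTRL libraries. The means were 28165 ± 2662 and 23578 ± 1634 CPM (SD, n = 2), and the log2 fold change of 0.26 (SE 0.09) lay just inside the threshold (edgeR adjusted p = 0.0470). Without replicate 1 of OE-WT the log2 fold change was 0.16 (edgeR adjusted p = 0.428), and without replicate 1 of CTRL it was 0.19 (adjusted p = 0.177).

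MT-CO3, the remaining mitochondrial subunit of the oxidase, was at 33012 and 28059 CPM in OE-WT and at 25814 and 28021 CPM in CTRL. The lower OE-WT library and the higher CTRL library were almost level. The means of 30536 ± 3502 and 26917 ± 1561 CPM gave a log2 fold change of 0.18 (SE 0.09), which did not pass the test (edgeR adjusted p = 0.171). As an unscaled share of all counts MT-CO3 took 3.14 and 2.77% in OE-WT and 2.69 and 2.87% in CTRL, and here the groups overlapped.

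In complex V, MT-ATP6, which forms part of the proton path of the ATP synthase, had 157337 and 130293 counts in OE-WT, against 115398 and 143102 in CTRL. It was at 15819 and 12779.8 CPM in OE-WT and at 8953 and 11594 CPM in CTRL. Replicate 1 of CTRL was the lowest of the 4, and the groups did not overlap. MT-ATP6 averaged 14299.5 ± 2149 CPM in OE-WT and 10273 ± 1867 CPM in CTRL (SD, n = 2). The log2 fold change was 0.48 (SE 0.11) and passed the test (edgeR adjusted p = 0.00298).

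MT-ATP8, a short membrane subunit, had 5223 and 4572 counts in OE-WT, against 3714 and 4742 in CTRL. Its level of 525 and 448 CPM in OE-WT lay above the 288 and 384 CPM of CTRL without overlap. The means were 487 ± 54.2 and 336 ± 67.9 CPM (SD, n = 2). The log2 fold change of 0.53 (SE 0.10) was the highest of the 6 (edgeR adjusted p = 0.000407). With each library left out in turn, both complex V mRNAs stayed past the threshold in 4 of 4 fits, with log2 fold changes of 0.30 to 0.68 for MT-ATP6 and of 0.34 to 0.76 for MT-ATP8. The lowest values for both were those without replicate 1 of CTRL. By DESeq2's Wald test neither passed the threshold (adjusted p = 0.208 for MT-ATP6 and 0.125 for MT-ATP8).

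**Figure D1:**
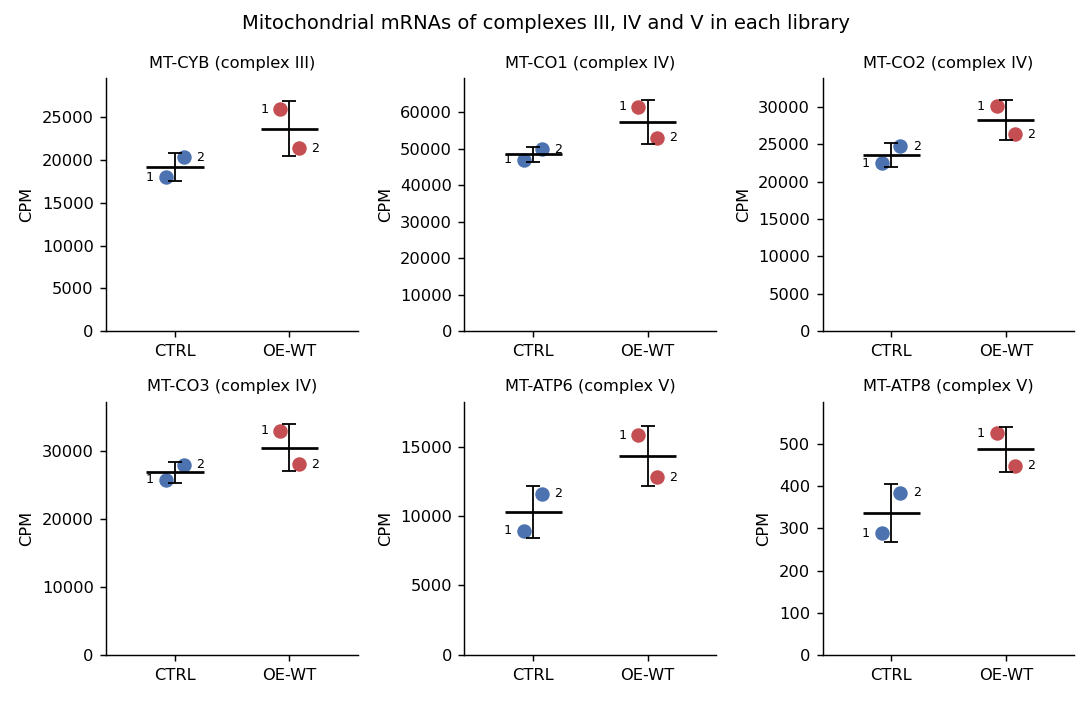
TMM-scaled CPM (linear axes from 0) of the 6 mRNAs in each library, with points numbered by replicate, horizontal lines at the group mean and bars of 1 SD (n = 2). Both OE-WT points lie above both CTRL points in each panel, by the least in MT-CO3, and replicate 1 is the higher in OE-WT and the lower in CTRL throughout.

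All 6 mRNAs had CPM groups that did not overlap, beside 29.9% of all genes tested that were higher in OE-WT without overlap (60.2% in either direction). The libraries within a group also differed in the same order for all 6. Replicate 1 of OE-WT was above replicate 2 in 6 of 6, and replicate 2 of CTRL was above replicate 1 in 6 of 6. After the log2 CPM of each gene was centred over the 4 libraries (pseudocount 0.5 CPM), the mean profile of the 6 mRNAs was 0.29 and 0.05 in OE-WT and -0.28 and -0.06 in CTRL. Replicate 2 of OE-WT and replicate 2 of CTRL lay closest to each other, and the replicates 1 lay at the ends. Among 10186 other genes with a mean of at least 50 counts, the genes outside the mitochondrial chromosome with the profile most like it by Euclidean distance over the 4 libraries were CDV3 (distance 0.0089), NUP54 (0.024), SFPQ (0.027), TSNAX (0.030) and TRRAP (0.033).

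Together the 6 mRNAs took 15.9% of all counts in replicate 1 and 14.0% in replicate 2 of OE-WT, and 12.8 and 13.8% in replicates 1 and 2 of CTRL. The exact (Clopper-Pearson) 95% intervals ran from 15.8525 to 15.8968% and from 14.0075 to 14.0498% in OE-WT and from 12.7438 to 12.781% and from 13.7945 to 13.8335% in CTRL. They cover counting error only, since PCR copies are not independent molecules. The gap between the 2 libraries of each group was far wider than these intervals. The mean shares were 15.0 ± 1.31% and 13.3 ± 0.744% (SD, n = 2), a ratio of 1.13. The groups did not overlap, and the exact two-sided permutation test gave p = 0.333, the smallest that 2 libraries against 2 allow. Relative to the counts outside the mitochondrial chromosome, the 6 mRNAs came to 21.9 ± 2.74% in OE-WT and 18.1 ± 1.46% in CTRL. In bulk libraries, more mitochondrial RNA per cell, more mitochondria in the cleared lysate and less nuclear-encoded RNA cannot be told apart.

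Compared per length, as CPM per kilobase of annotated exon, the 6 mRNAs fell into 3 tiers. In OE-WT the level of MT-CO2 was 41177 ± 3891 CPM per kilobase, followed by MT-CO3 at 38949 ± 4467 and MT-CO1 at 37204 ± 3888, and neighbours in this tier overlapped between libraries. MT-ATP6 (20998 ± 3156) and MT-CYB (20749.8 ± 2814) formed the next tier and overlapped with each other but not with MT-CO1. MT-ATP8 was lowest at 2352 ± 262 CPM per kilobase, although it shares its mRNA with MT-ATP6.

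In CTRL the order on the same scale was MT-CO2 (34471 ± 2389), MT-CO3 (34333.5 ± 1991), MT-CO1 (31472 ± 1314), MT-CYB (16789 ± 1435), MT-ATP6 (15085 ± 2742) and MT-ATP8 (1624 ± 328). MT-CO1 lay below MT-CO3 without overlap there, while MT-CYB and MT-ATP6 overlapped, so their exchange of places between the groups was within the spread of the libraries. MT-ATP8 and MT-ATP6, which share an mRNA, were counted apart. Per kilobase of bases not shared with another gene, MT-ATP8 was at 3024 and MT-ATP6 at 22554 CPM in OE-WT, and at 2088 and 16204 CPM in CTRL.

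The 13 protein-coding genes of the mitochondrial chromosome include the 7 of complex I. Across the 13, lower counted levels went with higher fold changes. Between log2 CPM per kilobase over the 4 libraries and the log2 fold change, Pearson's r was -0.804 and Spearman's rho was -0.868. This is a description across 13 genes that share the same 4 libraries. MT-ATP8 was at one end, with the lowest counted level and a log2 fold change of 0.53. It shares its mRNA with MT-ATP6, so its count per kilobase is not the level of a separate mRNA. MT-ND4L (6291 and 4389 CPM per kilobase in OE-WT and CTRL) overlaps MT-ND4 (24655 and 19288) on the same strand. The low end of the trend therefore rests partly on counts of overlapping genes. The 3 complex IV mRNAs were at the other end, with the highest levels and log2 fold changes of 0.18 to 0.26. MT-ATP6 stood apart from the trend, with a level near that of MT-CYB and a log2 fold change of 0.48.

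**Figure D2:**
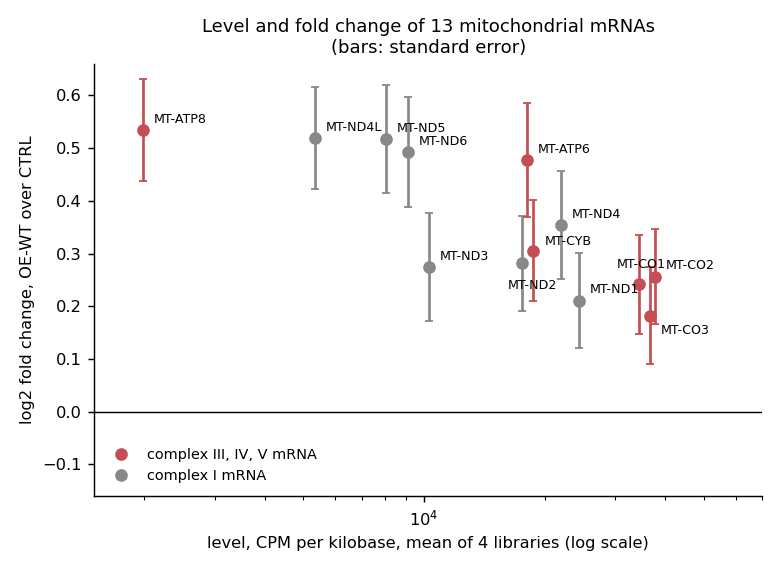
Log2 fold change (OE-WT over CTRL, bars of 1 SE) of the 13 mitochondrial mRNAs against their level in CPM per kilobase, as the mean of 4 libraries on a log axis, with the mRNAs of complexes III, IV and V in red and those of complex I in grey. MT-ATP8 is at the upper left and the 3 complex IV mRNAs are at the lower right.

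Neighbouring genes could differ. Along the 12 mRNAs encoded in the direction of the heavy-strand transcript, from MT-ND1 to MT-CYB, the order and the log2 fold change gave Pearson's r = 0.406 and Spearman's rho = 0.462, as a description across genes. MT-ATP6 and MT-CO3 are direct neighbours, and their log2 fold changes were 0.48 and 0.18. The log2 ratio of MT-CO3 to MT-ATP6 counts within a library was 1.06 and 1.13 in OE-WT and 1.53 and 1.27 in CTRL, with no overlap (difference -0.30, exact permutation p = 0.333). Without replicate 1 of CTRL the difference was -0.18.

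The complex I mRNAs, which encode subunits of NADH dehydrogenase, are cut from the same precursor RNAs, with MT-ND6 on the other strand. Of these 7, 5 rose and none fell, beside 9.44% of all genes tested that rose. The median log2 fold change of the 7 was 0.35. MT-ND4L and MT-ND4, both called, overlap on the same strand, so their calls may not be separate. The count of 5 was 3 without replicate 1 of either group and 1 by DESeq2. MT-ND4L (0.52), MT-ND5 (0.52) and MT-ND6 (0.49) had log2 fold changes of the size of the complex V pair, whereas MT-ND1 (0.21) was near the complex IV mRNAs. The log2 ratio of the 6 mRNAs to the 7 complex I mRNAs, which needs no scaling between libraries, was 0.52 in both OE-WT libraries and 0.66 and 0.54 in CTRL. It was lower in OE-WT by 0.08 with no overlap, and replicate 2 of CTRL was close to OE-WT (exact permutation p = 0.333, the smallest possible). Without replicate 1 of CTRL the log2 ratio differed by -0.02.

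Taken singly against the complex I mRNAs, the log2 ratio of MT-ATP6 was -2.88 and -2.96 in OE-WT and -3.12 and -3.001 in CTRL, and that of MT-ATP8 was -7.79 in both OE-WT libraries and -8.08 and -7.92 in CTRL. Both were higher in OE-WT with no overlap, by 0.14 and 0.21. MT-CO1 had log2 ratios of -0.92 and -0.90 in OE-WT and -0.72 and -0.89 in CTRL, MT-CO2 of -1.95 and -1.91 in OE-WT and -1.79 and -1.91 in CTRL, and MT-CO3 of -1.82 in both OE-WT libraries and -1.59 and -1.73 in CTRL. These 3 were lower in OE-WT with no overlap (differences -0.10, -0.08 and -0.16), and for MT-CO1 and MT-CO2 replicate 2 of CTRL was almost level with OE-WT. The exact permutation p was 0.333 for each of the 5. MT-CYB overlapped (difference -0.04, exact permutation p = 0.667). Without replicate 1 of CTRL the differences were 0.08 for MT-ATP6, 0.13 for MT-ATP8, -0.01 for MT-CO1, -0.03 for MT-CO2 and -0.09 for MT-CO3.

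As a share of the 13 mRNAs, complex V made up 5.63 ± 0.203% in OE-WT and 4.94 ± 0.456% in CTRL, complex IV 44.3 ± 0.380% and 46.3 ± 1.76%, and complex III 9.02 ± 0.203% and 8.95 ± 0.0470% (SD, n = 2). Complexes V and IV did not overlap between groups, and complex III did. The log2 ratio of complex V to complex IV mRNA counts was -2.93 and -3.02 in OE-WT and -3.37 and -3.10 in CTRL (difference 0.26, exact permutation p = 0.333, and 0.12 without replicate 1 of CTRL). Of the 15 pairs among the 6 mRNAs, 12 had within-library ratios with no overlap between groups. By CPM, a different measure, 60.2% of all genes tested had no overlap in either direction. No such share was computed for ratios of gene pairs. The 15 ratios come from 6 values per library and are not separate observations. Each of the 12 had the same smallest exact permutation p of 0.333, so no adjustment over the pairs could pass a threshold. MT-CO1 to MT-CO2 was among the 3 pairs that overlapped, with log2 ratios of 1.04 and 1.02 in OE-WT and 1.07 and 1.01 in CTRL. MT-ATP6 to MT-ATP8, counted from 1 mRNA, had log2 ratios of 4.91 and 4.83 in OE-WT and 4.96 and 4.92 in CTRL (difference -0.06).

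The rRNAs of the mitochondrial ribosome, encoded upstream of the mRNAs, both rose. MT-RNR1 changed by 0.81 on the log2 scale (SE 0.08, edgeR adjusted p = 5.4e-07) and MT-RNR2 by 0.54 (SE 0.10, edgeR adjusted p = 0.00039). The log2 ratio of the 6 mRNAs to the 2 rRNAs was 1.30 and 1.24 in OE-WT and 1.64 and 1.71 in CTRL, lower in OE-WT with no overlap (difference -0.40, exact permutation p = 0.333). Both rRNA levels depend on how far poly(A) selection or rRNA removal took them out, which was not tested.

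**Figure D3:**
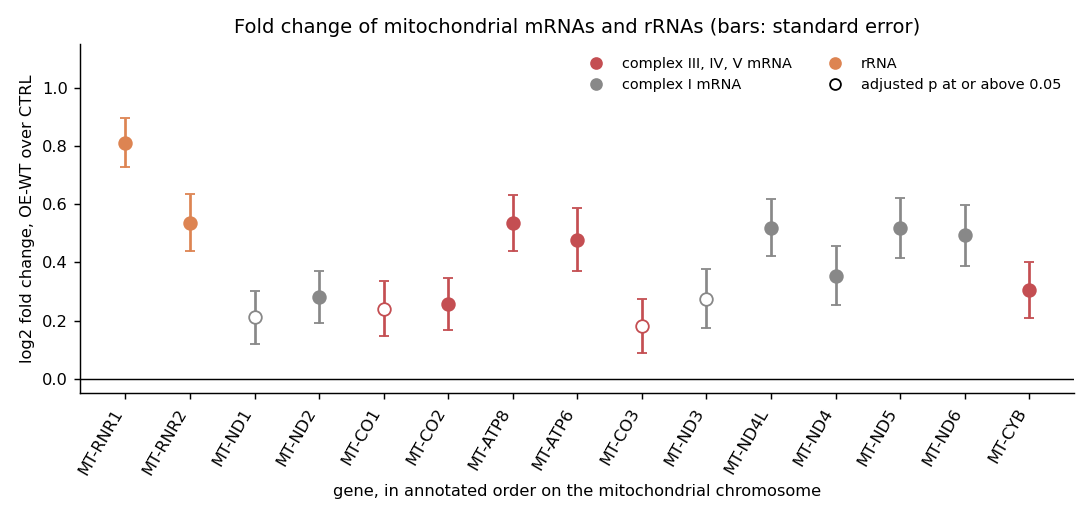
Log2 fold change (OE-WT over CTRL, bars of 1 SE) of the 2 rRNAs and 13 mRNAs in their annotated order, with open points at an adjusted p at or above 0.05. MT-ATP8 and MT-ATP6 stand above their neighbours MT-CO2 and MT-CO3, and no value is below 0.

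MT-ATP6 and MT-CO3 share 1 base, with no tRNA between them. At other borders of the 6 genes, tRNAs of the same strand mark cutting sites of the precursor. Counts of the mitochondrial tRNAs come from libraries that are not made for RNAs of that length. Of the 22 mitochondrial tRNAs, 12 passed the filter, 3 rose (MT-TQ, MT-TS1 and MT-TP) and 1 fell (MT-TA), and 4 had 0 counts in every library, which allows up to 3 counts each. The share of 3 of 12 higher stands beside 9.44% of all genes tested. This balance changed with the setting, with 1 higher and 3 lower by library size only, 1 higher and 4 lower without replicate 1 of OE-WT, 3 and 3 without replicate 1 of CTRL, and 1 higher and 0 lower by DESeq2. MT-TK, between MT-CO2 and MT-ATP8, and MT-TG, after MT-CO3, were among those at 0. MT-TS1, which lies after MT-CO1 on the opposite strand, had 307 and 257 CPM in OE-WT and 212 and 251 CPM in CTRL (log2 fold change 0.28). MT-TE, before MT-CYB, had 663 and 532 counts in OE-WT against 691 and 736 in CTRL. MT-TT, after MT-CYB, had 354 and 265 against 433 and 500. Neither passed the test. MT-TA had 11.2 and 14.6 CPM in OE-WT and 14.9 and 47.9 CPM in CTRL, and replicate 2 of CTRL stood far above the rest. The rises of MT-TP and MT-TS1 and the fall of MT-TA were named after their values were seen.

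The nuclear genome holds copies of the 6 genes, inserted long ago, which can share reads with them. The table listed 187 such pseudogenes, and 170 had 0 counts in all libraries. MTATP6P1, a copy of MT-ATP6 at chr1:633696-634376 on the plus strand, is 98.5% identical to it and had 32302 and 26893 counts in OE-WT, against 23749 and 28876 in CTRL. These were 20.5, 20.6, 20.6 and 20.2% of the MT-ATP6 counts of the same libraries. The copy of the overlap stretch at chr1:633696-633741 is shown because it differs from the mitochondrial sequence at 1 base, in capitals.
MTATP6P1 stretch: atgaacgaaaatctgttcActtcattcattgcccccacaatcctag
MTATP6P1 had a log2 fold change of 0.49 (edgeR adjusted p = 0.0011; 0.137 by DESeq2), close to the 0.48 of MT-ATP6. With so near a copy, the division of reads between the locus on chromosome 1 and the mitochondrial gene is uncertain, and whether any came from chromosome 1 was not tested.

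MTCO1P12, a copy of MT-CO1, had 5424 and 5955 counts in OE-WT, against 5085 and 5116 in CTRL, which were 0.885, 1.10, 0.838 and 0.830% of those of MT-CO1. It was called higher in OE-WT (log2 fold change 0.48, edgeR adjusted p = 2.1e-05). Its highest ratio to MT-CO1 was in replicate 2 of OE-WT. The copies of MT-CYB summed to 3 to 6 counts per library and those of MT-ATP8 to 0 to 2. Adding the copies' counts to their genes left 4 of the 6 mRNAs called higher.

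The partner subunits made from nuclear genes mostly fell in complex IV. The calls in complexes III and V stand beside 21.1% of all genes tested that were called in either direction. Among 9 nuclear subunits of complex III, 1 rose, 0 fell and the median log2 fold change was -0.02. The riser, UQCRC2, a core protein of the complex, was at 123 and 128 CPM in OE-WT and at 111 and 108 CPM in CTRL (log2 fold change 0.20, edgeR adjusted p = 0.039). The call of UQCRC2 was lost in 4 of 4 fits with a library left out, with the replicate block and by DESeq2, which called 0 of the 9. CYC1, cytochrome c1, had a log2 fold change of -0.16 (edgeR adjusted p = 0.093). MT-CYB over the summed nuclear subunits gave log2 ratios of 4.80 and 4.50 in OE-WT and 4.22 and 4.45 in CTRL, with no overlap. The difference of 0.31 was 0.16 without replicate 1 of OE-WT and 0.20 without replicate 1 of CTRL.

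Of 16 listed nuclear subunits of complex IV, 12 were tested, 9 fell and 0 rose, with a median log2 fold change of -0.33, beside 11.6% of all genes tested that fell. COX6A1 fell from 494 and 457 CPM in CTRL to 307 and 320 CPM in OE-WT (log2 fold change -0.60, edgeR adjusted p = 1.4e-06). COX7A2 fell from 333 and 290 CPM in CTRL to 207 and 221 CPM in OE-WT (log2 fold change -0.54, edgeR adjusted p = 1.5e-05). The groups did not overlap for either of these small accessory subunits. The other 7 that fell were COX6C, COX5B, COX8A, COX4I1, NDUFA4, COX7C and COX6B1, with log2 fold changes of -0.46 to -0.23. COX5A (-0.11), COX7A2L (-0.01) and COX7B (0.07) did not pass the test.

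The 16 listed complex IV subunits summed to 2154 and 2279 CPM in OE-WT and to 2966 and 2735 CPM in CTRL. The log2 ratio of mitochondrial to nuclear mRNAs of complex IV was 5.86 and 5.56 in OE-WT and 5.01 and 5.23 in CTRL. The groups did not overlap (difference 0.59, exact permutation p = 0.333). Without replicate 1 of OE-WT the difference was 0.44, and without replicate 1 of CTRL it was 0.48. The count of 9 fallen was 6 without replicate 1 of CTRL and 7 without replicate 1 of OE-WT, and 8 by DESeq2.

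For complex V, 18 nuclear subunits were tested, of which 2 rose and 2 fell, beside 9.44 and 11.6% of all genes tested. The median log2 fold change was 0.05. ATP5F1D (0.25) and ATP5PB (0.21) rose, and ATP5PO (-0.33) and ATP5MC2 (-0.25) fell. ATP5MC1, ATP5MC2 and ATP5MC3 each encode the subunit of the membrane ring that turns beside MT-ATP6. Of these, ATP5MC1 (-0.07) and the most abundant, ATP5MC3 (0.13), did not pass the test. DESeq2 called none of the 18, and with a library left out in turn ATP5F1D was called in 2, ATP5PB in 1, ATP5PO in 0 and ATP5MC2 in 3 of 4 fits. Mitochondrial over nuclear mRNAs of complex V gave log2 ratios of 2.53 and 2.24 in OE-WT and 1.75 and 2.17 in CTRL. Here too the groups did not overlap, by the least between the replicates 2 (difference 0.43, exact permutation p = 0.333). Without replicate 1 of CTRL the difference was 0.22 and without replicate 1 of OE-WT it was 0.28. ATP5F1D, ATP5PB, ATP5MC1 and ATP5MC3 were named after their values were seen.

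**Figure D4:**
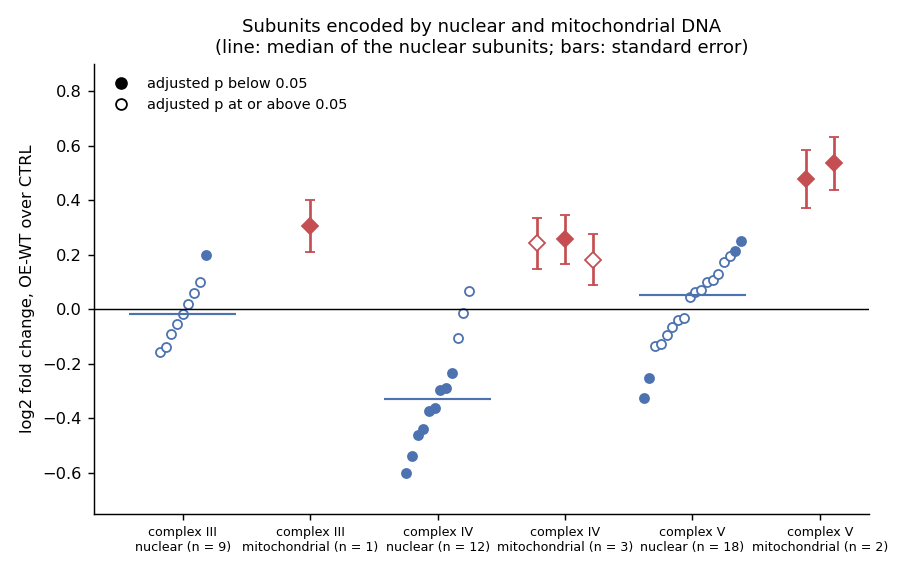
Log2 fold change (OE-WT over CTRL) of the tested nuclear subunits (blue circles, with a line at their median) and the mitochondrial subunits (red diamonds, bars of 1 SE) of complexes III, IV and V, filled where the adjusted p was below 0.05. The complex IV nuclear subunits lie mostly below 0, at a median of -0.33, while all 6 mitochondrial mRNAs lie above 0.

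Assembly factors of the 3 complexes showed few calls, beside 21.1% of all genes tested that were called in either direction. The 6 of complex III had 0 calls by edgeR and 0 by DESeq2, with 1 at an unadjusted p below 0.05 in edgeR. LYRM7 had a log2 fold change of 0.49 (edgeR adjusted p = 0.111) and BCS1L of 0.14 (0.416). Of 21 tested for complex IV, COA3 rose (0.31, edgeR adjusted p = 0.029), SURF1, which acts in haem insertion into MT-CO1, fell (-0.25, edgeR adjusted p = 0.017) and the median was -0.03. DESeq2 called 0 of the 21, and both calls were lost without replicate 1 of OE-WT and without replicate 1 of CTRL. PET100 had a log2 fold change of -0.31 (edgeR adjusted p = 0.449). The 4 tested for complex V also had 0 calls by either tool, with 2 at an unadjusted p below 0.05 in edgeR, ATPAF2 at 0.39 (edgeR adjusted p = 0.062) and ATPAF1 at 0.22 (0.051).

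Among the factors that make and keep these mRNAs, 22 of RNA processing, stability and decay were tested, of which 4 rose and 0 fell, beside the 9.44% of all genes, with a median log2 fold change of 0.09. The count of 4 was 1 without replicate 1 of CTRL, 2 without replicate 1 of OE-WT and 1 by DESeq2. LRPPRC, which holds mitochondrial mRNAs stable, was at 37.7 and 33.7 CPM in OE-WT and at 24.0 and 27.2 CPM in CTRL (log2 fold change 0.48, SE 0.10, edgeR adjusted p = 0.0016). The groups did not overlap, and the call held in 9 of 9 other settings and with each library left out. Its partner SLIRP had a log2 fold change of 0.11 (edgeR adjusted p = 0.334).

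TRMT10C, the RNase P subunit that also methylates mitochondrial tRNAs, was at 13.4 and 10.8 CPM in OE-WT and at 5.66 and 9.80 CPM in CTRL. Replicate 1 of CTRL was well below the other 3 libraries. The log2 fold change was 0.65 (SE 0.20, edgeR adjusted p = 0.025), and it was 0.30 (edgeR adjusted p = 0.372) without replicate 1 of CTRL. PNPT1, a mitochondrial exoribonuclease, behaved likewise, with 0.45 (edgeR adjusted p = 0.038) and, without that library, 0.21 (edgeR adjusted p = 0.409). ELAC2, which cuts the tRNAs at their ends, rose by 0.24 on the log2 scale (edgeR adjusted p = 0.014), and without that library gave 0.21 (edgeR adjusted p = 0.119). The catalytic RNase P subunit PRORP had only 24 to 43 counts per library (log2 fold change 0.78, edgeR adjusted p = 0.056), PTCD2 had -0.18 (0.607), and TRMT61B, the m1A enzyme of mitochondria, had -0.03 (0.940).

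Of 8 transcription factors tested, only TFAM, which packages mitochondrial DNA and opens its promoters, passed the test. The calls in this list and in those of translation and genome maintenance stand beside 21.1% of all genes tested that were called in either direction. TFAM was at 21.6 and 18.2 CPM in OE-WT and at 14.6 and 15.1 CPM in CTRL (log2 fold change 0.43, SE 0.13, edgeR adjusted p = 0.021), and the groups did not overlap. The call was lost without replicate 1 of OE-WT (log2 fold change 0.30), without replicate 1 of CTRL (0.40, edgeR adjusted p = 0.0814) and by DESeq2, which called 0 of the 8. POLRMT, the polymerase, had a log2 fold change of -0.19 (edgeR adjusted p = 0.060). Of 14 translation factors only MRRF, a ribosome recycling factor, rose (0.27, edgeR adjusted p = 0.033), while MTRF1L (0.44, edgeR adjusted p = 0.064), GFM1 (0.36, 0.087) and TACO1, which acts on MT-CO1 translation (0.17, 0.232), did not pass. The call of MRRF held in 1 of 4 fits with a library left out, and DESeq2 and the replicate block gave 0 calls among the 14. Of 12 genome maintenance genes, PRIMPOL rose (0.56, edgeR adjusted p = 0.049) and POLG, the DNA polymerase, fell by 0.22 on the log2 scale (edgeR adjusted p = 0.050) in the main test. Both calls were lost in 4 of 4 fits with a library left out, and DESeq2 called 0 of the 12. SURF1, ELAC2, PNPT1, MRRF, POLG and the other 7 complex IV subunits that fell were named after their values were seen.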

How the data were processed

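RNA sequencing libraries of DLD1 cells were compared, 2 of OE-WT and 2 of CTRL. The authors trimmed the reads, used HISAT2 for alignment to GRCh38, counted the reads of each gene and deposited 1 table of raw counts with 1 column per library and 0 other columns of per-sample values. The study's methods name HTSeq for the counting, and the submitters' processing notes name HISAT2 2.2.1, featureCounts 2.0.0 and DESeq2 1.34.0. The annotation release and the strand setting are not given in the sources used here. The labels describe a stranded kit.

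From these counts, edgeR 4.0.16 in R 4.3.3 filtered genes by group with a minimum count of 10, scaled them by TMM and fitted the quasi-likelihood model to the 4 libraries, with Benjamini-Hochberg adjustment over 14133 genes. The standard error is the log2 fold change over the square root of F. Shares and within-library ratios were tested by an exact two-sided permutation test, whose smallest p with 2 against 2 is 0.333. GENCODE 44 on GRCh38 supplied symbols for 57532 of 58302 identifiers, coordinates and sequences, and edlib 1.3.9.post1 computed identities. The alternatives were RLE, library size only, scaling on nuclear genes, 2 other filters, a replicate block, DESeq2 1.42.0, added pseudogene counts, the pair MT-ATP6 and MT-ATP8 summed, and each library left out in turn. The fit was tested on simulated data with known changes. Python 3.11.15 and matplotlib 3.10.9 drew the figures.

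The 6 mRNAs and all lists were chosen with earlier results of these data known. The lists are nuclear subunits, assembly factors, transcription, RNA processing, translation and genome maintenance genes, tRNAs, pseudogenes and cell markers. Each nuclear list has every gene named with an absolute log2 fold change of at least 0.5 and an adjusted p below 0.05, or else the 2 largest changes, with TACO1, LRPPRC, SLIRP, PTCD2, TRMT10C, TRMT61B, TFAM and POLRMT in addition. The 5 genes nearest in pattern had a mean of at least 50 counts. The lanes were not analysed apart.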

Additional observations from a re-analysis of the deposited data

How the results depend on the processing

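All alternatives kept positive log2 fold changes for the 6 mRNAs. The tests are edgeR's quasi-likelihood test unless DESeq2 is named. The number of genes called fell from 2976 to 1373 with DESeq2. With each library left out in turn it ran from 1903 to 2854, with 1903 without replicate 1 of CTRL. In these fits a group has 1 library, which is assumed to vary like the other group. Scaling by library size only gave 3183 calls, of which 23.1% were higher, against 44.8%. The log2 fold changes with a library left out ran from 0.17 to 0.43 for MT-CYB, 0.14 to 0.33 for MT-CO1, 0.16 to 0.34 for MT-CO2, 0.06 to 0.28 for MT-CO3, 0.30 to 0.68 for MT-ATP6 and 0.34 to 0.76 for MT-ATP8, and the last pair stayed past the threshold in 4 of 4 fits.

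MT-CYB lost its call with library size only (0.21, adjusted p = 0.236), with at least 10 counts in every library (0.30, 0.0510) and with DESeq2 (0.30, 0.240). MT-CO2 lost its call with RLE size factors (0.26, adjusted p = 0.0541), library size only (0.16, 0.385), scaling on nuclear genes only (0.25, 0.0537) and at least 10 counts in every library (0.25, 0.0913). MT-CO1 passed the threshold with every gene of at least 1 count (0.22, adjusted p = 0.0233) and with DESeq2 (0.24, 0.0379), and without replicate 2 of CTRL (0.29, 0.0278). DESeq2 left MT-ATP6 (0.48, 0.208) and MT-ATP8 (0.53, 0.125) short of the threshold. The cause of these changes was not tested. The difference in the summed share was 1.66 percentage points of all counts, 3.87 points relative to nuclear counts, and 0.74 to 2.59 with a library left out. The other within-library ratios with a library left out were added after the data were seen. The log2 ratio to complex I mRNAs ran from -0.14 to -0.02 with a library left out.

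With the replicate number as a block the fold changes of MT-CYB (0.30, adjusted p = 0.0587) and MT-CO2 (0.25, 0.132) did not pass the threshold, and 2658 genes were called. The deviations of replicate 1 of OE-WT and replicate 1 of CTRL from their group means correlated at r = -0.0851 across genes. Genes are not independent replicates, so this cannot decide whether same-numbered libraries shared a culture or a preparation. Such sharing is not given in the sources used here. Depth did not limit the 6 mRNAs, with 3714 counts or more in each library, and the number of libraries limits the precision.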
